A study of Mus musculus with 8 samples.

Results

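The 43 genes described here encode the tumor necrosis factor (TNF) ligand superfamily and its receptors as far as the arrays measured them one by one. They were taken by gene symbol, as every symbol that starts with Tnfsf or Tnfrsf together with Tnf, Lta, Ltb, Ltbr, Cd40, Cd40lg, Fas, Fasl, Cd27, Cd70, Eda, Edar, Eda2r and Ngfr, out of 18820 genes with a probe set (the group of oligonucleotides that reads 1 gene) of their own. There were 16 ligands and 27 receptors. Tnfsf12 and Tnfsf13 shared a single probe set, which was not used, so neither has a value here. Tnfsf13b alone had 2 probe sets, of which the brighter is given. The rule reads symbols alone, apart from this choice of the brighter probe set, and no filter on low values was applied.

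Whole-lung RNA was measured on 8 arrays, each loaded with RNA pooled from 3 mice, with 2 pools in each of 4 groups. CCSP-p52 mice are FVB mice that carry CCSP-rtTA and CCSP-tTS/(tet-O)7-FLAG-p52, so that doxycycline (dox) switches on FLAG-tagged p52 in cells of the airway that use the club cell promoter. WT mice were littermates negative for the transgenes. All groups, the controls included, drank dox at 2 g/L with 2% sucrose for 1 week, were 8 to 12 weeks old and were of both sexes. The groups are named CCSP-p52 LPS and WT LPS for lungs taken 48 hours after lipopolysaccharide (LPS) was given into the trachea, and CCSP-p52 dox and WT dox for lungs without LPS. The transgene is on in a small fraction of lung cells while the RNA comes from the whole organ. CCSP-p52 mice came from more than 1 founder line, and which line each pool held is not given in the labels.

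TNF family ligands are trimeric proteins, most of them held on the cell surface, and some, like TNF itself, are cut off by proteases. Their receptors fall into those with a death domain, which can start caspase activation, those that bind TRAF adaptors and turn on NF-kB, and decoys that bind ligand without a full signal. A subset of the TRAF-binding receptors also stabilizes the kinase NIK (Map3k14), which leads to processing of p100, the product of Nfkb2, into p52. This is the noncanonical NF-kB pathway, and the transgene supplies its end product without a receptor. In the lung, TNF made by macrophages soon after LPS is a central signal for recruiting neutrophils, while lymphotoxin and the B cell ligands shape lymphoid tissue.

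All values are log2 expression on the deposited scale, given for pool 1 and then pool 2 of a group. Differences are log2 fold changes with their standard error (SE). The array medians lay between 7.48 and 7.54. Pools of one group correlated at 0.996 in both dox groups, at 0.981 in CCSP-p52 LPS and at 0.985 in WT LPS. Lung identity was as labelled, since the markers of alveolar type II cells averaged 12.2 to 12.8 on every array. WT LPS pool 2 stood apart, with a mean of 11.3 for 4 squamous epithelium markers against 6.42 to 6.61 on the other arrays, and 9.75 for 5 skeletal muscle markers against 7.24 to 7.83. Nfkb2, whose product the transgene supplies, read 11.28 and 10.53 in CCSP-p52 LPS lungs, 10.83 and 10.56 in WT LPS lungs, 10.20 and 10.33 in CCSP-p52 dox lungs, and 9.51 and 9.58 in WT dox lungs. It was higher in both CCSP-p52 dox pools than in both WT dox pools, while the LPS pools of the genotypes overlapped.

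LPS moved more of the TNF superfamily than p52 did. In the model with LPS and p52 as factors, 19 of 43 members rose with LPS and 7 fell, at an adjusted p under 0.05 in limma, which moderates the variance of each gene by that of all genes. Over all genes tested, 13.5% rose and 20.8% fell, against 44.2% and 16.3% of the members. Of the ligands 6 rose and 4 fell. Of the receptors 13 rose and 3 fell. The median log2 fold change was 0.27 over the members, 0.26 over the ligands, 0.38 over the receptors and 0.005 over all genes. In 17 members all 4 LPS arrays lay above all 4 arrays without LPS, and in 7 they lay below, against 15.1% and 21.8% of all genes.

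**Figure D1:**
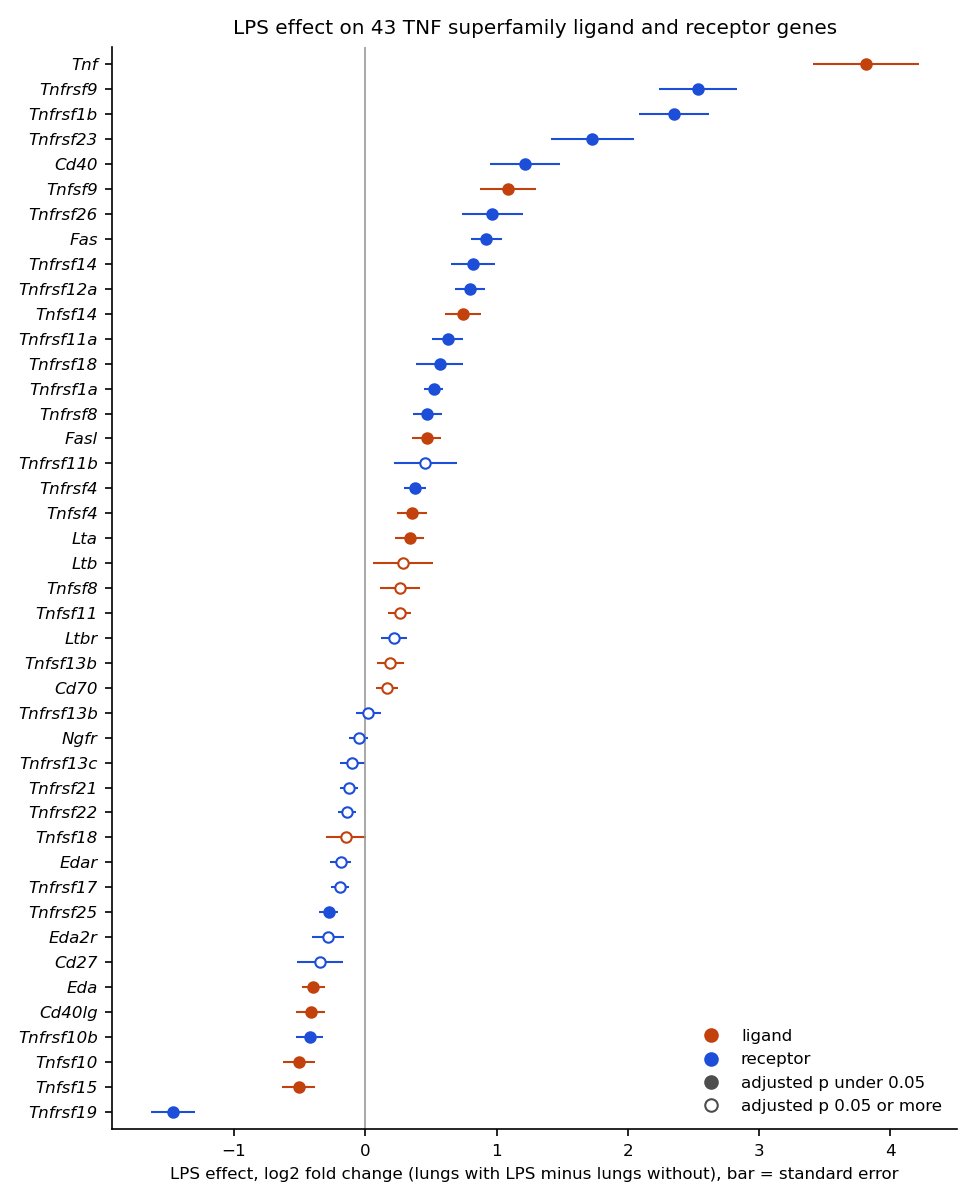
Each point is the LPS effect on 1 gene as a log2 fold change (4 arrays with LPS minus 4 without, from the model with both factors), the bar is its standard error, and filled points passed an adjusted p under 0.05. Tnf is at the top at 3.81 and Tnfrsf19 at the bottom at -1.46, and most filled points lie to the right of 0.

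In whole-lung RNA, more cells of a type and more RNA per cell cannot be told apart. All 7 measured neutrophil markers and all 6 measured markers of recruited monocytes and macrophages rose with LPS, with medians of 3.75 and 2.60. The neutrophil markers averaged 10.9 to 11.6 on the LPS arrays and 7.12 to 7.75 on the others, and the monocyte and macrophage markers 8.82 to 10.2 and 7.04 to 7.47. Markers of natural killer cells rose for 3 of 6 and those of T cells for 0 of 7. Markers of endothelium fell for 5 of 6, of alveolar type I cells for 4 of 4, of B cells for 2 of 6, of fibroblasts for 2 of 5, of club cells for 2 of 4 and of alveolar type II cells for 2 of 5. Of 7 dendritic cell markers 1 rose and 3 fell, among them Cd209a at -2.81, and of 6 alveolar macrophage markers 3 rose and 2 fell. Car4, 1 of these 2, read 11.3 to 12.6 over the arrays, near the endothelium markers' averages of 11.2 to 12.5. Which cells its RNA came from was not tested. The part of these shifts in the members' changes was not tested.

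Tnf, the founding ligand of the family, had the highest LPS effect of the 43 genes. It read 11.59 and 9.77 in CCSP-p52 LPS lungs, 11.88 and 11.01 in WT LPS lungs, 7.44 and 7.25 in CCSP-p52 dox lungs, and 7.33 and 6.97 in WT dox lungs. All LPS pools were above all pools without LPS, and pool 2 was the lower in each LPS group. The log2 fold change was 3.81 (SE 0.40, adjusted p = 0.000425), a 14.1-fold difference. Lta, which encodes lymphotoxin alpha, a ligand of the same receptors, read 6.56 and 6.25 in CCSP-p52 LPS lungs, 6.78 and 6.44 in WT LPS lungs, 6.04 and 6.27 in CCSP-p52 dox lungs, and 6.22 and 6.15 in WT dox lungs. The LPS pools overlapped with the others, since CCSP-p52 LPS pool 2 lay below CCSP-p52 dox pool 2. Its log2 fold change was 0.34 (SE 0.11, adjusted p = 0.0483), and the call held when the second pool of either CCSP-p52 group was dropped but not without any other array. It was also lost with all probe sets in the fit, after renewed quantile normalization and in the effect averaged from the model of 4 groups. Ltb, the membrane anchor of the lymphotoxin heterotrimer, read 8.53 and 7.54 in CCSP-p52 LPS lungs, 8.97 and 8.29 in WT LPS lungs, 7.99 and 7.93 in CCSP-p52 dox lungs, and 8.20 and 8.06 in WT dox lungs. CCSP-p52 LPS pool 2 was the lowest of its 8 values, and the log2 fold change of 0.29 (SE 0.23, adjusted p = 0.383) did not pass.

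The receptors of TNF moved by unlike amounts. Tnfrsf1b, which encodes the TNF receptor found mainly on leukocytes and endothelium, read 12.12 and 10.85 in CCSP-p52 LPS lungs, 12.13 and 11.82 in WT LPS lungs, 9.47 and 9.35 in CCSP-p52 dox lungs, and 9.52 and 9.17 in WT dox lungs. Every LPS pool lay above every pool without LPS, and the difference was 2.35 (SE 0.26, adjusted p = 0.000556), or 5.11-fold. Tnfrsf1a, the death-domain receptor carried by most cells, read 11.70 and 11.62 in CCSP-p52 LPS lungs, 11.79 and 11.60 in WT LPS lungs, 11.22 and 11.09 in CCSP-p52 dox lungs, and 11.19 and 11.12 in WT dox lungs. Its groups did not overlap either, and it rose by a smaller 0.52 (SE 0.07, adjusted p = 0.00144).

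**Figure D2:**
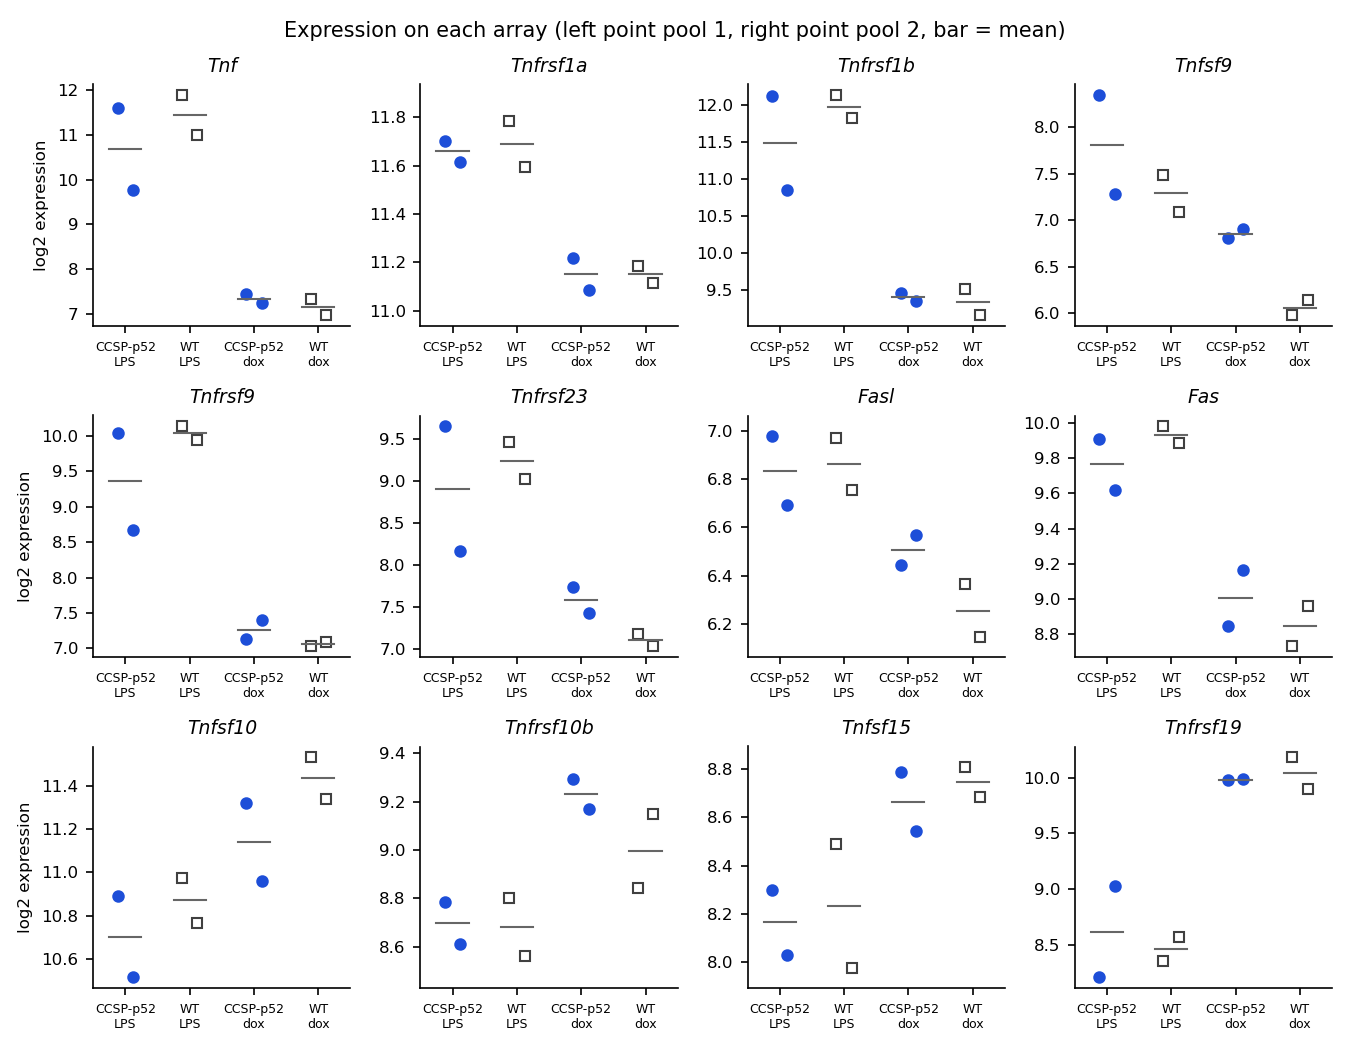
Each panel shows the log2 expression of 1 gene on the 8 arrays, by group, with pool 1 as the left and pool 2 as the right point and the group mean as a bar; filled circles are CCSP-p52 and open squares WT, and each panel has its own axis that does not start at 0. Tnf, Tnfrsf1b, Tnfrsf9 and Tnfrsf23 are high in all LPS pools and lower in CCSP-p52 LPS pool 2 than in the other LPS pools, while Tnfrsf19 is low in all LPS pools.

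Among the costimulatory receptors of lymphocytes, 5 of 7 rose and 1 fell, with a median of 0.47. Tnfrsf9 (4-1BB), which is induced on activated T and NK cells and on some myeloid cells, read 10.04 and 8.68 in CCSP-p52 LPS lungs, 10.13 and 9.94 in WT LPS lungs, 7.13 and 7.40 in CCSP-p52 dox lungs, and 7.03 and 7.09 in WT dox lungs. The groups with and without LPS did not overlap, and the difference was 2.53 (SE 0.30, adjusted p = 0.000672), or 5.79-fold. Its ligand gene Tnfsf9 read 8.34 and 7.28 in CCSP-p52 LPS lungs, 7.48 and 7.09 in WT LPS lungs, 6.80 and 6.91 in CCSP-p52 dox lungs, and 5.98 and 6.14 in WT dox lungs. Tnfsf9 was higher in every LPS pool than in any pool without LPS, by 1.09 (SE 0.21, adjusted p = 0.00576). Tnfrsf14, which encodes the herpesvirus entry mediator HVEM, read 10.73 and 9.995 in CCSP-p52 LPS lungs, 10.87 and 10.54 in WT LPS lungs, 9.79 and 9.65 in CCSP-p52 dox lungs, and 9.76 and 9.66 in WT dox lungs. Its LPS pools lay above the others, by 0.82 (SE 0.17, adjusted p = 0.00676). Tnfsf14 (LIGHT), which binds HVEM and the lymphotoxin beta receptor, read 7.54 and 7.36 in CCSP-p52 LPS lungs, 7.98 and 7.41 in WT LPS lungs, 6.87 and 6.78 in CCSP-p52 dox lungs, and 6.96 and 6.69 in WT dox lungs. It rose by 0.75 (SE 0.14, adjusted p = 0.00425), without overlap.

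Smaller changes were seen in the other pairs of this class. Tnfsf4 (OX40 ligand) read 5.45 and 5.13 in CCSP-p52 LPS lungs, 5.68 and 5.32 in WT LPS lungs, 4.99 and 5.13 in CCSP-p52 dox lungs, and 5.01 and 5.01 in WT dox lungs. Its groups overlapped by a narrow margin. It rose by 0.36 (SE 0.12, adjusted p = 0.0437), a call kept when the second pool of either CCSP-p52 group was dropped and lost without any other array, with all probe sets in the fit and after renewed quantile normalization. Its receptor gene Tnfrsf4 (OX40) rose by 0.38 (SE 0.08, adjusted p = 0.0105). Tnfrsf18 (GITR) rose by 0.57 (SE 0.18, adjusted p = 0.0398), a call kept when the second LPS pool of either genotype was dropped and lost without any other array, with all probe sets in the fit and in the effect averaged from the model of 4 groups. Its ligand gene Tnfsf18 read 5.16 to 5.89 in LPS lungs and 5.52 to 5.75 in lungs without LPS and did not pass. Tnfrsf25 (death receptor 3) was the member of this class that fell. It read 8.03 and 7.88 in CCSP-p52 LPS lungs, 7.93 and 7.92 in WT LPS lungs, 8.22 and 8.36 in CCSP-p52 dox lungs, and 8.08 and 8.21 in WT dox lungs. All LPS values were below the others, with a log2 fold change of -0.28 (SE 0.07, adjusted p = 0.0205), and the call was lost when the arrays were centred or quantile-normalized again and when the second dox pool of either genotype was dropped. Tnfsf15 (TL1A), the ligand of this receptor, read 8.30 and 8.03 in CCSP-p52 LPS lungs, 8.49 and 7.98 in WT LPS lungs, 8.79 and 8.54 in CCSP-p52 dox lungs, and 8.81 and 8.68 in WT dox lungs. It fell as well, at -0.51 (SE 0.13, adjusted p = 0.0163), a call that was lost when the first dox pool of either genotype was dropped.

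Of the 7 death-domain receptors, Tnfrsf1a and Fas rose and Tnfrsf10b and Tnfrsf25 fell. Fas, whose product triggers apoptosis when Fas ligand binds, read 9.91 and 9.62 in CCSP-p52 LPS lungs, 9.98 and 9.88 in WT LPS lungs, 8.85 and 9.16 in CCSP-p52 dox lungs, and 8.73 and 8.96 in WT dox lungs. Its LPS pools lay above all others, by 0.92 (SE 0.12, adjusted p = 0.000999). Fasl, made chiefly by cytotoxic T and NK cells, rose by 0.47 (SE 0.11, adjusted p = 0.0115). Tnfsf10, which encodes the apoptosis-inducing ligand TRAIL, read 10.89 and 10.51 in CCSP-p52 LPS lungs, 10.97 and 10.77 in WT LPS lungs, 11.32 and 10.96 in CCSP-p52 dox lungs, and 11.53 and 11.34 in WT dox lungs. The WT LPS and CCSP-p52 dox pools overlapped at 10.97 and 10.96, and the gene fell, at -0.50 (SE 0.12, adjusted p = 0.0137). Its signalling receptor gene in the mouse, Tnfrsf10b, read 8.78 and 8.61 in CCSP-p52 LPS lungs, 8.80 and 8.56 in WT LPS lungs, 9.30 and 9.17 in CCSP-p52 dox lungs, and 8.84 and 9.15 in WT dox lungs. It was lower in each LPS pool than in any other pool, with a log2 fold change of -0.42 (SE 0.10, adjusted p = 0.015), and lost the call when CCSP-p52 dox pool 1 was dropped, when WT dox pool 2 was and when both second LPS pools were. Tnfrsf21 (death receptor 6), Edar and Ngfr had log2 fold changes of -0.12, -0.19 and -0.05 and did not pass.

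Genes for TRAIL-binding decoys did not follow their ligand as a group. Tnfrsf23, a mouse decoy receptor that lacks a death domain, read 9.65 and 8.17 in CCSP-p52 LPS lungs, 9.46 and 9.02 in WT LPS lungs, 7.74 and 7.43 in CCSP-p52 dox lungs, and 7.18 and 7.03 in WT dox lungs. It rose by 1.73 (SE 0.32, adjusted p = 0.00436), or 3.32-fold, without overlap. Tnfrsf22, the other such decoy, lay between 8.35 and 8.48 in LPS lungs and between 8.46 and 8.62 in lungs without LPS, a log2 fold change of -0.14 (SE 0.07, adjusted p = 0.148). Tnfrsf26, the third gene of this cluster, read 8.30 and 7.35 in CCSP-p52 LPS lungs, 8.46 and 7.72 in WT LPS lungs, 6.98 and 6.60 in CCSP-p52 dox lungs, and 7.29 and 7.08 in WT dox lungs. It rose by 0.97 (SE 0.23, adjusted p = 0.0135), although CCSP-p52 LPS pool 2 was only just above WT dox pool 1. Tnfrsf11b, which encodes osteoprotegerin, a soluble decoy for RANK ligand and TRAIL, read 7.54 to 8.60 in LPS lungs and 7.57 to 7.66 in lungs without LPS. The first pools, at 8.47 in CCSP-p52 LPS and 8.60 in WT LPS, were above the dox lungs while the second pools were level with them, and the effect of 0.46 (SE 0.24, adjusted p = 0.184) did not pass.

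Outside these classes, Tnfrsf19 (TROY) had the strongest fall of the family. It read 8.21 and 9.03 in CCSP-p52 LPS lungs, 8.36 and 8.58 in WT LPS lungs, 9.98 and 9.98 in CCSP-p52 dox lungs, and 10.18 and 9.90 in WT dox lungs. All LPS pools were below all others, and the difference was -1.46 (SE 0.17, adjusted p = 0.000651), or 2.76-fold lower. Eda, the ectodysplasin ligand of epithelial appendage development, read 7.06 and 7.28 in CCSP-p52 LPS lungs, 6.94 and 7.13 in WT LPS lungs, 7.51 and 7.39 in CCSP-p52 dox lungs, and 7.56 and 7.52 in WT dox lungs. It fell by a smaller amount, at -0.40 (SE 0.09, adjusted p = 0.0105), again without overlap. Its receptor genes Edar and Eda2r were at -0.19 and -0.28 and did not pass after adjustment.

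Receptors that feed the noncanonical pathway rose with LPS more often than they fell. Of the 5 best-known ones, Cd40, Tnfrsf11a and Tnfrsf12a rose and Ltbr and Tnfrsf13c did not pass, with a median of 0.63. Of 4 further receptors described to process p100, Tnfrsf1b, Tnfrsf8 and Tnfrsf4 rose and Cd27 did not pass, with a median of 0.43. No receptor of either list fell. Of the 10 measured ligands of these receptors, Tnf, Lta, Tnfsf14 and Tnfsf4 rose and Cd40lg fell, with a median of 0.28. Tnfsf12, the ligand of Tnfrsf12a, is the one whose probe set was shared. For comparison, 13 of all 27 receptors of the family rose and 3 fell, and of all genes 13.5% rose and 20.8% fell. A difference between the noncanonical receptors and the other receptors of the family was not tested.

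Cd40, a receptor of B cells, macrophages and dendritic cells that receives help from T cells, read 11.46 and 10.15 in CCSP-p52 LPS lungs, 11.53 and 11.11 in WT LPS lungs, 9.79 and 9.89 in CCSP-p52 dox lungs, and 9.90 and 9.79 in WT dox lungs. CCSP-p52 LPS pool 2 was nearer to the dox lungs than to the other LPS pools, though still above them. The difference was 1.22 (SE 0.27, adjusted p = 0.00917). Cd40lg, carried mainly by activated T cells, moved the other way. It read 5.10 and 4.89 in CCSP-p52 LPS lungs, 5.29 and 5.28 in WT LPS lungs, 5.60 and 5.65 in CCSP-p52 dox lungs, and 5.60 and 5.39 in WT dox lungs. Its LPS pools were below all other pools, with a log2 fold change of -0.42 (SE 0.11, adjusted p = 0.0187), and the call was lost when either pool of CCSP-p52 dox or the first of WT dox was dropped.

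Tnfrsf11a (RANK), known from osteoclasts and dendritic cells, read 8.78 and 8.31 in CCSP-p52 LPS lungs, 8.71 and 8.39 in WT LPS lungs, 7.94 and 7.90 in CCSP-p52 dox lungs, and 7.88 and 7.96 in WT dox lungs. It rose without overlap, by 0.63 (SE 0.12, adjusted p = 0.00465). Its ligand gene Tnfsf11 (RANK ligand) read 8.37 and 8.13 in CCSP-p52 LPS lungs, 8.31 and 8.39 in WT LPS lungs, 8.03 and 8.15 in CCSP-p52 dox lungs, and 8.06 and 7.91 in WT dox lungs. CCSP-p52 LPS pool 2 fell within the values without LPS, and 0.26 (SE 0.09, adjusted p = 0.0517) was just above the threshold. Tnfrsf12a (Fn14), which is induced on injured epithelium and stroma, read 9.68 and 9.998 in CCSP-p52 LPS lungs, 9.78 and 9.45 in WT LPS lungs, 8.89 and 9.19 in CCSP-p52 dox lungs, and 8.77 and 8.85 in WT dox lungs. It rose by 0.80 (SE 0.11, adjusted p = 0.00154), with CCSP-p52 LPS pool 2 as its highest array. In the other 18 raised members that pool was below CCSP-p52 LPS pool 1.

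Ltbr, the lymphotoxin beta receptor of stroma and myeloid cells, read 9.40 and 9.10 in CCSP-p52 LPS lungs, 9.30 and 8.998 in WT LPS lungs, 8.89 and 9.02 in CCSP-p52 dox lungs, and 9.01 and 9 in WT dox lungs. WT LPS pool 2 lay among the dox lungs, and 0.22 (SE 0.10, adjusted p = 0.128) did not pass. Tnfrsf13c, the receptor for the B cell survival factor BAFF, read 8.78 and 8.50 in CCSP-p52 LPS lungs, 8.90 and 8.74 in WT LPS lungs, 8.86 and 8.62 in CCSP-p52 dox lungs, and 9.02 and 8.82 in WT dox lungs. Its groups overlapped throughout, at -0.10 (SE 0.10, adjusted p = 0.482). Tnfsf13b, the gene for BAFF, read 10.86 and 10.88 in CCSP-p52 LPS lungs, 10.78 and 10.58 in WT LPS lungs, 10.63 and 10.48 in CCSP-p52 dox lungs, and 10.78 and 10.45 in WT dox lungs. It did not pass either, at 0.19 (SE 0.10, adjusted p = 0.189), and its dimmer probe set gave 0.36 (adjusted p = 0.0648). The remaining BAFF receptor genes, Tnfrsf13b (TACI) and Tnfrsf17 (BCMA), were at 0.02 and -0.19 and did not pass.

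Tnfrsf8 (CD30), a receptor of activated lymphocytes, read 7.18 and 6.79 in CCSP-p52 LPS lungs, 7.14 and 7.14 in WT LPS lungs, 6.64 and 6.64 in CCSP-p52 dox lungs, and 6.65 and 6.41 in WT dox lungs. It rose by 0.47 (SE 0.11, adjusted p = 0.0116), and the groups did not overlap. The ligand gene Tnfsf8 (CD30 ligand) read 6.56 and 6.18 in CCSP-p52 LPS lungs, 6.32 and 6.15 in WT LPS lungs, 6.14 and 5.66 in CCSP-p52 dox lungs, and 6.30 and 6.06 in WT dox lungs. Those groups overlapped, at 0.27 (SE 0.15, adjusted p = 0.216). Tnfrsf4 read 7.95 and 7.95 in CCSP-p52 LPS lungs, 8.22 and 7.89 in WT LPS lungs, 7.67 and 7.58 in CCSP-p52 dox lungs, and 7.60 and 7.65 in WT dox lungs. All its LPS values were above the rest.

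Cd27, a receptor of T and B cells, read 7.49 and 7.33 in CCSP-p52 LPS lungs, 7.70 and 7.03 in WT LPS lungs, 7.88 and 7.45 in CCSP-p52 dox lungs, and 8.05 and 7.56 in WT dox lungs. Pool 2 was the lower in every group, and -0.34 (SE 0.18, adjusted p = 0.177) did not pass. Its ligand gene Cd70 read 6.25 and 6.12 in CCSP-p52 LPS lungs, 6.24 and 6.31 in WT LPS lungs, 5.85 and 6.16 in CCSP-p52 dox lungs, and 6.12 and 6.13 in WT dox lungs. The groups overlapped, at 0.17 (SE 0.08, adjusted p = 0.165).

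**Figure D3:**
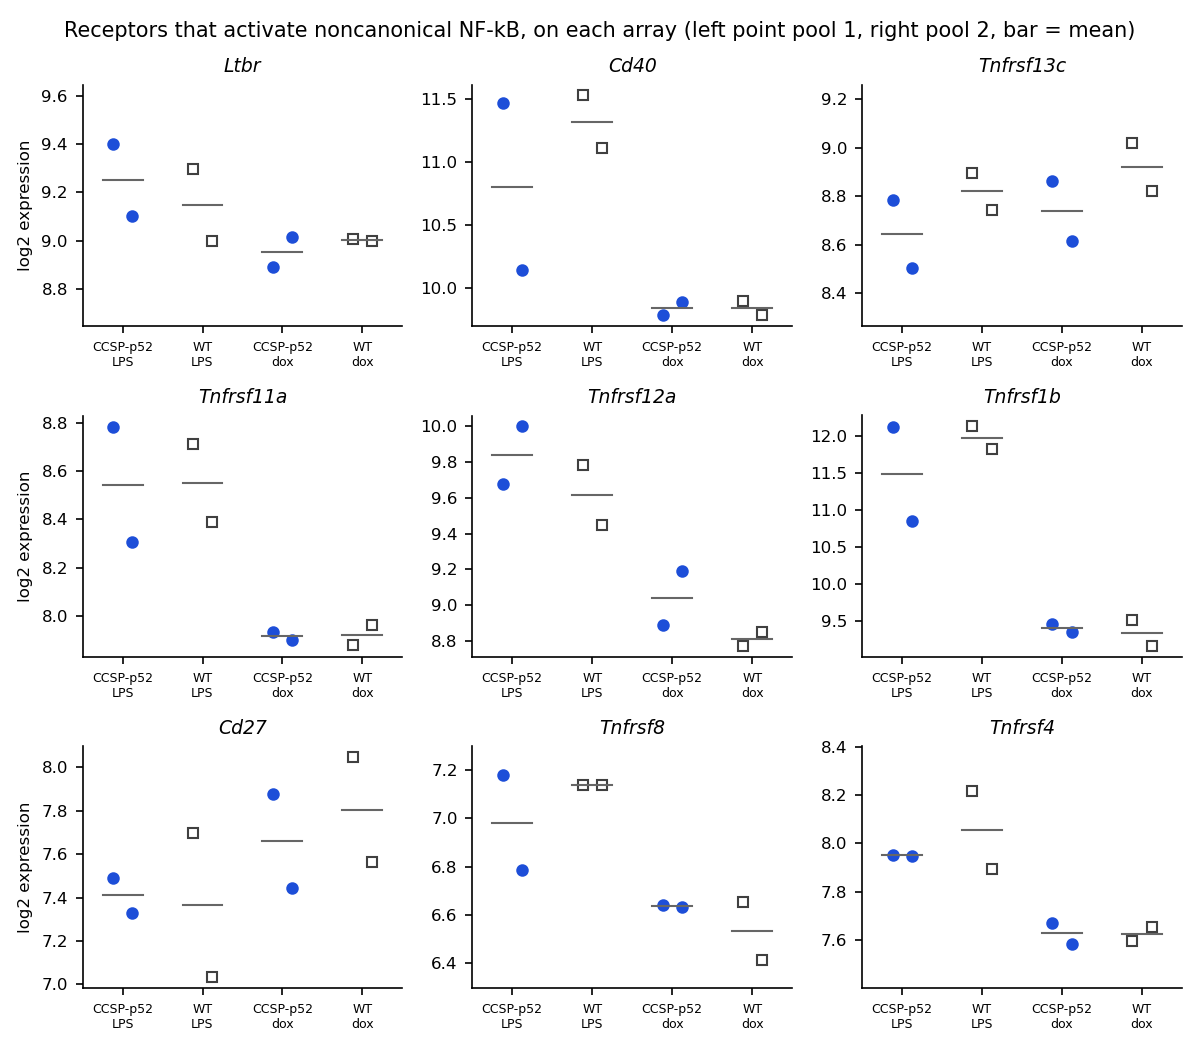
Log2 expression on the 8 arrays, by group, of the 9 measured receptors that activate noncanonical NF-kB, 1 panel a gene, with pool 1 as the left and pool 2 as the right point and the group mean as a bar; filled circles are CCSP-p52, open squares WT, and axes differ and do not start at 0. Cd40, Tnfrsf11a, Tnfrsf12a, Tnfrsf1b, Tnfrsf8 and Tnfrsf4 are higher in all LPS pools than in any pool without LPS, and Ltbr, Tnfrsf13c and Cd27 overlap.

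When the genes were set out as 26 known pairs of ligand and receptor, both partners rose with LPS in 8 pairs. These were Tnf with Tnfrsf1a and with Tnfrsf1b, Lta with the same receptors, Tnfsf14 with Tnfrsf14, Fasl with Fas, Tnfsf4 with Tnfrsf4 and Tnfsf9 with Tnfrsf9. Both partners fell in 2 pairs, Tnfsf10 with Tnfrsf10b and Tnfsf15 with Tnfrsf25. The partners went opposite ways in 2 pairs, since Cd40lg fell while Cd40 rose, and Tnfsf10 fell while Tnfrsf23 rose. In the other pairs at most 1 partner passed, the receptor alone in 3, the ligand alone in 5 and neither in 6. Several pairs share a gene, so they are not independent. The calls of Lta and Tnfsf4 were each lost in 6 of the fits that left out 1 array. Those of Tnfrsf10b, Tnfrsf25, Tnfsf15 and Cd40lg were each lost in at least 1 such fit.

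**Figure D4:**
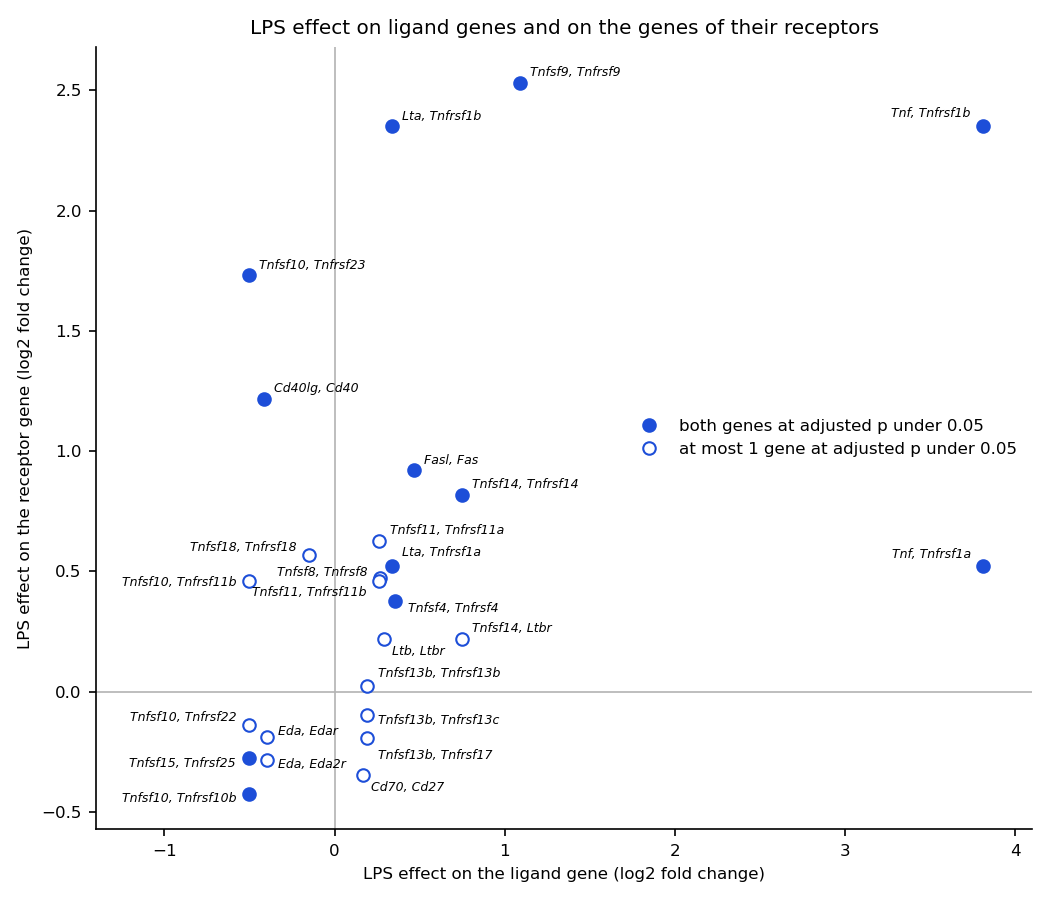
Each point is 1 of 26 ligand and receptor pairs, placed by the LPS effect on the ligand gene (horizontal, log2 fold change) and on the receptor gene (vertical, log2 fold change); it is filled where both genes passed an adjusted p under 0.05. The pairs of Tnf lie far to the right, and the Cd40lg and Cd40 pair and the Tnfsf10 and Tnfrsf23 pair lie at the upper left.

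Many of the genes lie side by side in the genome, and neighbours are given together here. In the gene order of RefSeq (GRCm38.p6), 23 of the 43 members fell into 9 clusters, in which at most 9 other coding genes separate a member from the next. Ltb, Tnf and Lta are adjacent on chromosome 17, and their LPS effects were 0.29, 3.81 and 0.34. Tnfrsf26, Tnfrsf22 and Tnfrsf23 are adjacent on chromosome 7, and the middle gene was at -0.14 while its neighbours rose by 0.97 and 1.73. Tnfsf9, Cd70 and Tnfsf14 are adjacent on another part of chromosome 17, and Cd70 at 0.17 lay between 2 genes that rose by 1.09 and 0.75. On chromosome 4, Tnfsf15 fell while the adjacent Tnfsf8 did not pass, whereas Tnfrsf1b and Tnfrsf8, also adjacent, both rose. Tnfrsf4 and Tnfrsf18, adjacent on the same chromosome, rose by 0.38 and 0.57. On chromosome 1 the adjacent Tnfsf4, Tnfsf18 and Fasl were at 0.36, -0.15 and 0.47, and on chromosome 6 Cd27, Ltbr and Tnfrsf1a, which have 1 coding gene between each and the next, were at -0.34, 0.22 and 0.52. Eda2r and Eda on the X chromosome were at -0.28 and -0.40. Apart from Eda2r and Eda, a receptor and a ligand, the genes of each cluster are related in sequence. Cross-hybridization between their probes was not tested.

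Promoter sequence was available for 34 of the 43 members in RefSeq (GRCm38.p6), as 38 windows of the 250 bases before a start site. The NF-kB consensus, searched on both strands, was found in 3 members, Ltb, Tnfrsf8 and Tnfrsf9. That is 7.89% of the members' windows, against 3.9% of 32851 windows of all genes. The words GGAGACTT and GGAGATTT, of the kind bound by RelB with p52, were searched on both strands and found in 0 members, against 1.13% and 0.962% of all windows. The word TATAAA, on either strand, was in 7 members, or 18.4% of their windows, against 12.4% of all windows. No match says only that these letters were not in this window. The windows of the adjacent genes Ltb, Tnf and Lta are shown because Tnf rose by far more than its neighbours on either side, and those of Tnfrsf9 and Tnfrsf8 because they are the raised members with a consensus match. All are 5′ to 3′ on the gene's strand; capitals mark the NF-kB consensus in Ltb, Tnfrsf9 and Tnfrsf8, and TATAAA in Tnf and Lta.
Ltb, chr17:35194257-35194506, plus strand: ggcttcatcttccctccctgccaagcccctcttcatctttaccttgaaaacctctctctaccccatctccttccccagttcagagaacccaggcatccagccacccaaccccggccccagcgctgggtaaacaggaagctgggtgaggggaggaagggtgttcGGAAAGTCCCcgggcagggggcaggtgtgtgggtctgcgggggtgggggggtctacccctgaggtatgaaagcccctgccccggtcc
Tnf, chr17:35202008-35202257, minus strand: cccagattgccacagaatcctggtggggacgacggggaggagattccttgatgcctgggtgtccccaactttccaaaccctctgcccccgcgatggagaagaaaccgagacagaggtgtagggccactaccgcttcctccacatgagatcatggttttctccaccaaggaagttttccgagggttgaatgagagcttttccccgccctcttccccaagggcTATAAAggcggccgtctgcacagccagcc
Lta, chr17:35205352-35205601, minus strand: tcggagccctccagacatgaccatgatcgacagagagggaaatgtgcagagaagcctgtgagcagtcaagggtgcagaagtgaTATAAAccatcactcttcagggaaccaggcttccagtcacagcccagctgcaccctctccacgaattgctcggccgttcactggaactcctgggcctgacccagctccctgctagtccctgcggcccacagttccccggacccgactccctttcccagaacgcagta
Tnfrsf9, chr4:150927749-150927998, plus strand: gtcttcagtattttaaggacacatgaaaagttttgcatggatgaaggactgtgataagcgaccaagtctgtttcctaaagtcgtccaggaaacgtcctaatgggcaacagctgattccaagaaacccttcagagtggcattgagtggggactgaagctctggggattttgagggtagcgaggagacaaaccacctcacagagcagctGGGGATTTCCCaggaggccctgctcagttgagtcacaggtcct
Tnfrsf8, chr4:145315165-145315414, minus strand: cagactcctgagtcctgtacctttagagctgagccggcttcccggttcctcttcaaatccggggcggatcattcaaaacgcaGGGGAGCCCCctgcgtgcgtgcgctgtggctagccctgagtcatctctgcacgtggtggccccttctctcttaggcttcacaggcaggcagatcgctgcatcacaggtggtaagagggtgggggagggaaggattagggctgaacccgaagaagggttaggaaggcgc
The run in Ltb is GGAAAGTCCC and that in Tnfrsf8 is GGGGAGCCCC. The Tnfrsf9 window belongs to the second of its 2 annotated starts, where overlapping matches join into 1 capitalized run, and the window of the first start held no match. Of the 15 raised members with a window, 2 held the consensus and 3 held TATAAA.

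Lists of pathway genes chosen for this account moved as follows with LPS. Of 21 measured adaptor and proximal signalling genes, 9 rose and 1 fell, with a median of 0.27. Traf5, a TRAF adaptor, was the one that fell, by 0.48. Birc3, a ubiquitin ligase of the TRAF complex, and Rnf31, of the linear ubiquitin ligase complex, rose by 1.15 and 0.57, and Mlkl and Ripk3, which execute necroptosis, rose by 1.74 and 1.37. The list of noncanonical signalling held 9 genes, of which Chuk and Traf3 had no value here. Of the 7 measured, Birc3, Nfkb2 (0.89), Relb (0.79) and Birc2 (0.32) rose. Otud7b, a deubiquitinase that restrains the pathway, fell by 0.39, and the kinase gene Map3k14 was at 0.08 and did not pass. Of 11 TNF-induced and feedback genes 9 rose and 0 fell, with a median of 1.05, among them Tnfaip2 (3.17), Tnfaip3 (2.21), Tnip1 (1.53) and Nfkbia (0.89). Of 7 genes for shedding of ligands and receptors 4 rose, namely Furin (0.92), Rhbdf2 (0.90), Sppl2a (0.64) and the sheddase gene Adam17 (0.63). Rhbdf1, whose product like that of Rhbdf2 carries this sheddase to the cell surface, fell by 0.57. Of 4 lymphoid targets of the noncanonical pathway, the chemokine genes Cxcl13 (3.64) and Ccl19 (0.98) rose and Cxcl12 fell by 0.75.

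The LPS effect was also fitted in each genotype, with the pools of all groups sharing 1 variance. In CCSP-p52 lungs 6 members rose and 2 fell, against 4.31% and 5.03% of all genes. In WT lungs 15 members rose and 2 fell, against 8.07% and 14% of all genes. These counts changed with the arrays kept, and each fit that left out 1 array held 1 pool in that array's group. The lowest counts in such fits came without a dox pool of the same genotype. Whether pool values or the lower precision of these fits moved the counts was not tested. Without WT LPS pool 2, the array with high squamous and muscle markers, 18 members rose and 8 fell over all arrays. A fit without both second LPS pools was chosen after the data were seen and held 1 LPS pool in each genotype. The share of all genes called was not computed for these fits, so their member counts cannot be set against it.

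The second LPS pools carried lower values of the raised members in both genotypes. Among the 19 members that rose, pool 2 was below pool 1 in both LPS groups for 17, or 89.5%, against 79% of the 2539 genes that rose in all. The median gap between the pools was 0.47 in CCSP-p52 LPS and 0.33 in WT LPS for the members, and 0.42 and 0.21 for all raised genes. Neutrophil markers averaged 11.4 and 10.9 in the CCSP-p52 LPS pools and 11.6 and 10.96 in the WT LPS pools. Markers of recruited monocytes and macrophages averaged 10.2 and 8.82 in the CCSP-p52 LPS pools, and 9.80 and 9.64 in the WT LPS pools. The part of these marker differences in the gaps was not tested.

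p52 changed few members. The cut-off used here was a log2 fold change of at least 0.41 in size with an unadjusted p of at most 0.05. The study ranked raised genes by the same 0.41 and also retrieved p-values for its selection, without naming a limit for them. The limit on p and the downward calls were set here. By this cut-off 1 member was higher in CCSP-p52 than in WT lungs over all 8 arrays and 0 were lower, against 0.228% and 0.0425% of all genes. After adjustment limma called 0 members, against 0.00531% of all genes, and 1 member had an unadjusted p under 0.05. Without LPS the cut-off again gave 1 member higher and 0 lower (0.569% and 0.165% of all genes), and with LPS it gave 0 and 0 (0.972% and 1.09%). The median p52 effect over the members was -0.03 over all arrays, 0.002 without LPS and -0.09 with LPS.

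The member at the cut-off was Tnfsf9, the 4-1BB ligand gene of activated antigen-presenting cells, whose 8 values stand above with its LPS effect. The study, from these same arrays, has it in its list of p52-associated genes. Both CCSP-p52 dox pools, at 6.80 and 6.91, were above both WT dox pools, at 5.98 and 6.14. With LPS the pools overlapped, since CCSP-p52 LPS pool 1, at 8.34, was above both WT LPS pools and pool 2, at 7.28, lay between them. The p52 effect was 0.66 (SE 0.21, unadjusted p = 0.0143, adjusted p = 1 in limma) over all arrays, 0.80 (unadjusted p = 0.0413, adjusted p = 1) without LPS and 0.52 (unadjusted p = 0.144) with LPS. Over all arrays it stayed at the cut-off in each fit that left out 1 array, with effects of 0.48 to 0.90. Without LPS the effect was 0.72 to 0.88 over the fits that left out 1 array. It missed the cut-off, by the limit on p, whenever any of the 4 dox pools was left out and after a further quantile normalization. Leaving out a dox pool left 1 pool in its group. With LPS the effect was -0.003 when CCSP-p52 LPS pool 1 was dropped and 1.05 when pool 2 was. The receptor gene Tnfrsf9 was at 0.20 without LPS and -0.67 with LPS and did not reach the cut-off.

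**Figure D5:**
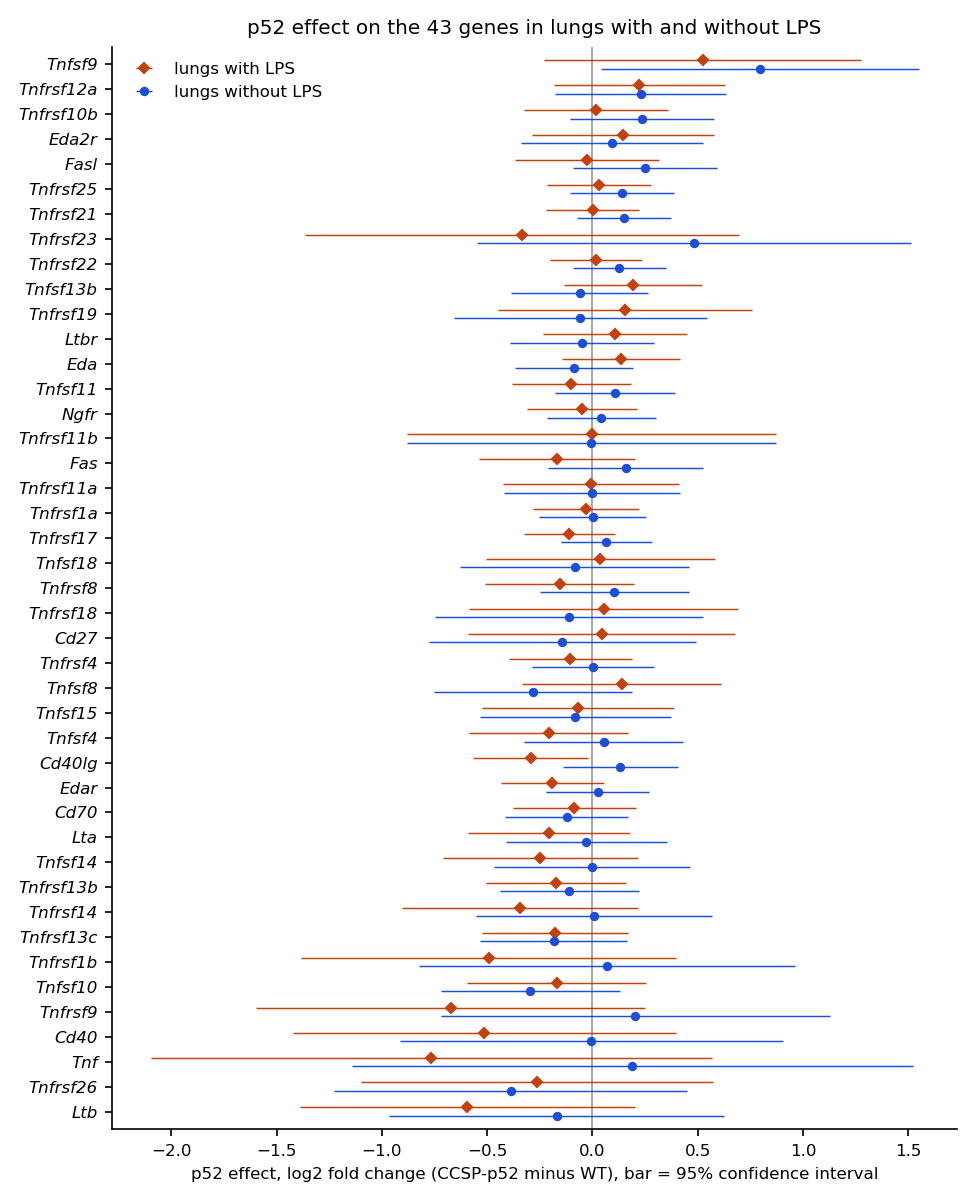
The p52 effect on each of the 43 genes (CCSP-p52 minus WT, log2 fold change) in lungs with LPS (diamonds) and without LPS (circles), with 95% confidence intervals from the model of 4 groups; genes are ordered by the effect over all arrays. Tnfsf9 is at the top, and its interval without LPS and that of Cd40lg with LPS are the ones that do not cross 0.

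Receptors of the noncanonical pathway did not reach the cut-off. Over all arrays the p52 effect was 0.23 (95% confidence interval -0.03 to 0.49) for Tnfrsf12a, 0.03 (-0.20 to 0.26) for Ltbr, -0.005 (-0.27 to 0.26) for Tnfrsf11a, -0.18 (-0.40 to 0.04) for Tnfrsf13c and -0.26 (-0.87 to 0.35) for Cd40. These intervals include effects of the size of the cut-off downward for Cd40 and upward for Tnfrsf12a, and end short of it for the other 3 receptors. They take the p52 effect to be the same with and without LPS. In the model of 4 groups the SE of the p52 effect in either LPS state was larger for these 3. It was 0.144 for Ltbr, 0.177 for Tnfrsf11a and 0.146 for Tnfrsf13c, against 0.10, 0.117 and 0.097 over all arrays. Intervals within an LPS state are thus wider than those given here. The medians of the p52 effect were -0.005 over these 5 receptors, -0.05 over the 4 further ones and -0.09 over the 10 ligands. Of the B cell markers 1 of 6, Fcer2a, was lower with p52 by the same cut-off, and the B cell markers averaged 8.69 and 8.12 in CCSP-p52 dox, 9.25 and 8.55 in WT dox, 8.48 and 7.66 in CCSP-p52 LPS, and 8.73 and 8.10 in WT LPS. Their part in the values of Tnfrsf13c, Cd40 and Ltb was not tested. From the pathway lists Nfkb2 reached the cut-off over all arrays and without LPS (0.47 and 0.72), and Tnip3, a feedback gene of NF-kB, without LPS (2.11).

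In lungs with LPS several raised members were lower in CCSP-p52 than in WT on average, without reaching the cut-off, and 1 pool decided this. The p52 effect with LPS was -0.77 for Tnf, -0.67 for Tnfrsf9, -0.51 for Cd40 and -0.49 for Tnfrsf1b. Without CCSP-p52 LPS pool 2 the same effects were 0.15, 0.01, 0.15 and 0.14. Without CCSP-p52 LPS pool 1 they were -1.68, -1.36, -1.17 and -1.13, and each then reached the cut-off.

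The difference between the LPS effects of the genotypes was tested as an interaction. By the cut-off 0 members had a higher LPS effect in CCSP-p52 than in WT lungs and 1 had a lower one, against 1.24% and 2.38% of all genes. The 1 member is 2.33% of the 43, a share like that of all genes. After adjustment limma called 0, and 1 member had an unadjusted p under 0.05. That member was Cd40lg, with an LPS effect of -0.63 in CCSP-p52 lungs and -0.20 in WT lungs, a difference of -0.42 (SE 0.16, unadjusted p = 0.0357, adjusted p = 0.913). The p52 effect on Cd40lg was -0.29 with LPS and 0.13 without LPS. It was the 1 member, or 2.33%, whose CCSP-p52 pools lay below both WT pools with LPS and above both without LPS, against 3.84% of all genes. The call was kept when the first pool of WT dox or of CCSP-p52 LPS was dropped and lost without any other array, with array weights and after renewed quantile normalization, and the probe set is among the dimmest 25% of those tested. For the members with the strongest LPS effects the intervals of the interaction were wide, from -2.84 to 0.93 for Tnf and from -2.18 to 0.43 for Tnfrsf9.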

How the data were processed

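Whole-lung RNA was hybridised to Affymetrix Mouse Gene ST arrays (version 1.0 by the study's methods, a point the probe annotation used here did not settle). The authors normalized the arrays by the robust multichip average (RMA) and deposited log2 expression of 35556 probe sets; their notes name limma 3.20.8 for the tests. RMA subtracts background, equalizes the distribution of all arrays and summarizes probes, so a change shared by most genes is removed and low values are compressed. No probe-level intensities, detection calls, scan dates or slides were used here.

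From these values, 21218 probe sets with exactly 1 symbol were tested with limma 3.58.1 (R 4.3.3). A first model held p52 and LPS as factors without an interaction. A second held 4 groups, for the effects within a genotype or LPS state and for their difference. The residual degrees of freedom were 5 and 4, before moderation. The study's methods name a model with both factors but do not say whether it held an interaction. The changes that its supplement lists for Tnfsf9, Nfkb2 and Tnip3 equal the effects found here without LPS (0.80, 0.72 and 2.11). They differ from those over all arrays (0.66, 0.47 and 0.98). Adjusted p-values are by Benjamini-Hochberg over all tested probe sets. LPS calls used an adjusted p under 0.05; p52 and interaction calls used the 0.41 by which the study ranked raised genes, here in both directions and with an unadjusted p of at most 0.05. Each gene was given by its brightest probe set. The scripts were tested on simulated data. The number of arrays limits the precision, with a median SE of 0.095 in the model with both factors.

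Pool numbers come from the sample labels. In all 6 pairs of groups, pools with the same number departed from their group's mean together (r of 0.14 to 0.347 over the tested probe sets). On this ground alone the numbers were treated as a pairing, and only in the alternative fit with a block. All other fits, the main ones included, left the pool number out. With the pool number as a block, 11 members rose and 4 fell with LPS in CCSP-p52 lungs, against 6 and 2 without it, and 4 fell in WT lungs, against 2. Nothing says which mice, litters or days a pool number shares, and the p-values measure only the spread between pools.

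Values on each array are given for members at a cut-off in a p52 comparison or the interaction, for the 10 largest called LPS effects each way, for noncanonical receptors and their ligands, and for Tnf, Lta and Ltb; other members are given by range or effect, and pathway genes up to 4 a list by p, apart from Map3k14, Adam17, Otud7b and Traf5, which were picked with their values known. The members and lists were chosen with earlier results of these data known. Alternatives were all probe sets, 1 probe set a gene, removal of the dimmest 25%, renewed centring or quantile normalization, an intensity trend, array weights, the block, any probe set of a gene, the effect averaged from the model of 4 groups and leaving out each array. Promoters, gene order and chromosomes are from RefSeq (GRCm38.p6).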

Additional observations from a re-analysis of the deposited data

Results flagged for a closer look

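Cd40lg is set apart because both CCSP-p52 pools were below both WT pools with LPS and above both WT pools without LPS. The LPS effect was -0.63 in CCSP-p52 lungs and -0.20 in WT lungs, a difference of -0.42 on the log2 scale (unadjusted p = 0.0357, adjusted p = 0.913 in limma). The same crossing without overlap was seen in 722 of 18820 genes, or 3.84%, against 1 of the 43 members, or 2.33%. The difference fails the correction over all tested probe sets. Both CCSP-p52 LPS pools, at 5.10 and 4.89, were below both WT LPS pools, at 5.29 and 5.28, while both CCSP-p52 dox pools, at 5.597 and 5.65, were above both WT dox pools, at 5.595 and 5.388, the nearest of them by a margin smaller than the gap between the WT pools. T cell markers averaged 8.53 and 7.78 in CCSP-p52 LPS lungs, 8.62 and 8.24 in WT LPS lungs, 8.33 and 8.15 in CCSP-p52 dox lungs, and 8.54 and 7.98 in WT dox lungs. Their part in the difference was not tested.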

How the results depend on the processing

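The number of arrays limits all calls, and 8 members lie among the dimmest 25% of probe sets (Cd40lg, Cd70, Eda2r, Lta, Tnfrsf17, Tnfsf18, Tnfsf4 and Tnfsf8). Of the 26 members called for LPS, Cd40lg, Lta, Tnfrsf10b, Tnfrsf18, Tnfrsf25, Tnfsf15 and Tnfsf4 lost the call in at least 1 alternative, and the other 19 kept it in all that were run. The cause of the shifts below was not tested. The share of all genes called was not computed for the alternatives, so the member counts below cannot be set against it. Each fit that left out 1 array held 1 pool in that array's group.

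Over fits that left out 1 array, p52 over all arrays gave 1 to 2 higher and 0 to 2 lower members, and LPS over all arrays 16 to 21 and 4 to 8. p52 without LPS gave 0 to 2 and 0 to 1, p52 with LPS 0 to 1 and 0 to 7, LPS in CCSP-p52 lungs 0 to 14 and 0 to 2, LPS in WT lungs 0 to 18 and 0 to 3, and the interaction 0 to 2 and 0 to 10. The 7 and the 10 came without CCSP-p52 LPS pool 1, and the 0 for LPS in CCSP-p52 lungs without either CCSP-p52 dox pool.

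With all probe sets, 3 members rose with LPS in CCSP-p52 lungs and 10 in WT lungs. Without the dimmest 25%, 1 fell in CCSP-p52 lungs and the interaction gave 0 lower, as it did (0) after renewed quantile normalization, where p52 without LPS gave 0 higher. Array weights gave 2 higher for p52 over all arrays, 3 risen and 1 fallen with LPS in CCSP-p52 lungs, 4 fallen in WT lungs, and 0 lower for the interaction. With pool number as a replicate block, p52 with LPS gave 1 lower, LPS in CCSP-p52 lungs 11 risen and 4 fallen, LPS in WT lungs 4 fallen, and the interaction 1 higher; it changed no other count by over 1.5 times. With any probe set of a gene counted, p52 with LPS and the interaction gave 1 higher each. Without both second LPS pools, an alternative chosen after the data were seen, p52 gave 2 higher without LPS, 2 higher and 2 lower with LPS, LPS in CCSP-p52 lungs 20 risen and 5 fallen, and the interaction 0 lower; of the 31 members then called for LPS over all arrays, 25 were among the 26.

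Signs turned for small effects of LPS and of p52 over all arrays, and for larger effects of p52 with LPS. For LPS, Ngfr was at 0.0065 after renewed centring, 0.0017 after renewed quantile normalization and -0.0934 to 0.0094 with 1 array left out, Tnfrsf13b at -0.0356 to 0.0864 with 1 array left out, and Tnfrsf13c at 0.01 without both second LPS pools. For p52 over all arrays, array weights put Ltbr at -0.0519 and Tnfrsf11a at 0.0284, leaving out 1 array gave -0.0476 to 0.0719 for Ltbr, -0.0992 to 0.0901 for Tnfrsf11a and -0.47 to 0.0554 for Cd40, and Tnfrsf11a was at 0.0206 without both second LPS pools. For p52 with LPS, leaving out 1 array gave -0.0029 to 1.05 for Tnfsf9, -1.68 to 0.15 for Tnf, -1.36 to 0.0102 for Tnfrsf9, -1.17 to 0.15 for Cd40 and -1.13 to 0.14 for Tnfrsf1b.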
